A study of Mus musculus with 9 samples.

Results

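Matrix metalloproteinases and the tissue inhibitors of metalloproteinases (TIMPs) were followed in mouse retina. They were taken by gene symbol, as 6 metalloproteinase genes (Mmp2, Mmp3, Mmp9, Mmp12, Mmp14 and Mmp19) and the 4 TIMP genes (Timp1 to Timp4). They make up 10 of the 22337 genes measured. The rule uses symbols alone, but earlier results of these data were known when it was set. RNA-seq was performed on whole retinas at postnatal day 28 (P28), with 3 libraries in each of 3 groups. WT retinas came from C57 BL/6J mice that received no injection. In rd10 mice a mutated Pde6b, a subunit of the rod phosphodiesterase, leads to loss of the rods first. The rd10 mice, which were littermates, received 1 µl of either normal saline (NS) or MSC-EVs into the vitreous of both eyes at P14 and again at P21. MSC-EVs are extracellular vesicles released by mesenchymal stem cells, here from human umbilical cord. Since no WT mouse was injected and no rd10 mouse was left without injection, the mutation and the injection cannot be told apart in a comparison with WT. The labels do not say whether the libraries of a group came from separate animals, so p-values measure only the spread between these libraries.

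Metalloproteinases are zinc-dependent enzymes that cut extracellular matrix, cell surface proteins and growth factors. Most are secreted as inactive proenzymes and need a cut to become active, while Mmp14 sits in the cell membrane. TIMPs bind the active site of these enzymes and block it. Timp2 has a further role, since it holds the Mmp2 proenzyme on Mmp14 at the cell surface and so takes part in its activation. Timp3 binds to the matrix itself, is abundant in Bruch's membrane under the retinal pigment epithelium, and is mutated in Sorsby fundus dystrophy. In the retina these genes are studied for remodelling of vessels and basement membranes and for gliosis.

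The libraries held 19491721 to 62532357 estimated counts, and MSC-EVs replicate 3 was the deepest. Levels are given as CPM, which are counts scaled to the size and composition of the library. Comparisons between genes use FPKM, which is divided by depth and transcript length but is not scaled to composition. A level of 3 counts, taken as the floor, equals 0.0466 to 0.15 CPM. A gene was taken as differentially expressed when its edgeR adjusted p was under 0.05 and its log2 fold change was at least 1 in size. The labelled tissue was checked with marker genes. The summed level of 7 rod genes was 68400 to 73500 CPM in WT, 13600 to 19600 CPM with NS and 14300 to 20000 CPM with MSC-EVs. Cornea and conjunctiva genes summed to at most 1.67 CPM in any library. Lens genes summed to between 8.53 and 75.8 CPM and retinal pigment epithelium genes to between 55.2 and 234 CPM.

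The start sites of the genes called higher in NS-treated rd10 retina are shown first, where a promoter sequence was available. Promoter sequences from RefSeq (GRCm38.p6) were matched to 7 of the 10 genes by symbol, and those of Mmp2, Mmp9 and Mmp19 were not among them. Each line gives the 100 bases before the start site, 5′ to 3′ on the gene's own strand. Capitals mark the letters TGAGTCA (bound by AP-1), its variant TGAGTAA, or GGGCGG (the GC box bound by Sp1), all searched on both strands, and TATAAA, searched on the gene's own strand. Mmp3, which was at 0 counts in WT, is shown beside them.
Timp1, chrX:20870066-20870165, plus strand: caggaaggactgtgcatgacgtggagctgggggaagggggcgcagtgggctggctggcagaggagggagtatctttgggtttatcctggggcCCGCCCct
Timp2, chr11:118355412-118355511, minus strand: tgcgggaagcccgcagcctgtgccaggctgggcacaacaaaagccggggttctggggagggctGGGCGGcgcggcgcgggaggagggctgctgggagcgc
Timp3, chr10:86300312-86300411, plus strand: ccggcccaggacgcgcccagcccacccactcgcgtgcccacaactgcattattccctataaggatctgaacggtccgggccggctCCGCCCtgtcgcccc
Timp4, chr6:115252206-115252305, minus strand: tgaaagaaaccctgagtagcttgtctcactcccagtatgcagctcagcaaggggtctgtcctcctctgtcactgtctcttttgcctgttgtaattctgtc
Mmp14, chr14:54431498-54431597, plus strand: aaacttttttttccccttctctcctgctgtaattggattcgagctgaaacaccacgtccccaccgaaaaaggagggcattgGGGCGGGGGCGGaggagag
Mmp3, chr9:7445722-7445821, plus strand: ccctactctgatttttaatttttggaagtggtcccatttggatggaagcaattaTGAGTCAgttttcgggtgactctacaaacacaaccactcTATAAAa

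Timp1 also held TGAGTAA 27 bases after its start, within the 30 bases of chrX:20870181-20870210.
Timp1, after the start: cggtgggtggaTGAGTAAtgcgtccaggaa

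The windows searched ran from 250 bases before to 50 bases after each start. Timp1, Timp2, Timp3 and Mmp14 each held the GC box, which 35.7% of 32851 promoters of the same length hold. Timp4 held none of the 4 motifs. Mmp3 held TGAGTCA at position -46 and TATAAA at -7, counted from the start site. The second start of Mmp12 held TGAGTCA at -44 and TATAAA at 5, while its first start held none of them. TGAGTCA is found in 5.2%, TGAGTAA in 2.68% and TATAAA in 8.32% of all promoters. A match in letters is a description and does not show that a factor binds there.

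The 4 TIMPs and some of the metalloproteinases were higher in NS-treated rd10 retina than in WT. All 4 TIMPs, Mmp14 and Mmp19 were differentially expressed, and none of the tested genes was lower. Of the 8 genes that passed the filter on low counts, 6 were called higher, whereas 9.16% of all 14644 genes tested were called higher and 3.56% lower. Timp1, Timp4 and Mmp19 were low in WT and passed that filter through the NS-treated libraries, where they were high. Such genes could hardly be called lower, and they also enter the counts and the median that follow. With at least 10 counts in every library, 3 of 5 genes were called higher, against 941 of 13763 genes. With no limit on the fold change all 8 passed the adjusted p, Mmp9 not in every fit that left out 1 library, against 31.2% of all genes higher. In all 8, every NS-treated library lay above every WT library, which held for 33.7% of all genes. Their median log2 fold change was 1.55, against 0.01 over all genes tested. Mmp3 and Mmp12 did not pass the filter. In whole retina, a gene read more often in each cell and a larger share of the cells that express it cannot be told apart.

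**Figure D1:**
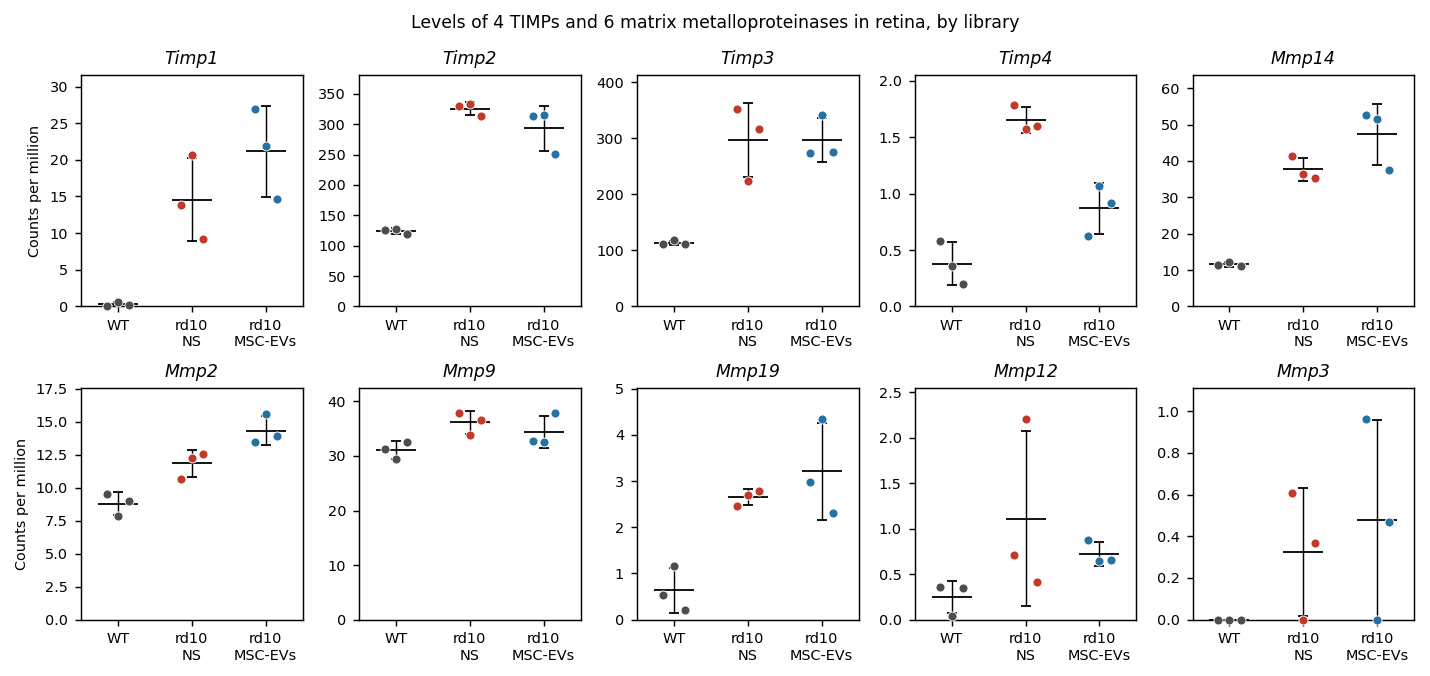
Level of each gene in CPM (vertical axes, linear from 0), by group from left to right. Points are the 3 libraries of a group, the horizontal bars are their means and the whiskers 1 SD; Timp1 goes from at most 0.582 in WT to at least 9.24 in both rd10 groups, while Mmp9 stays between 29.4 and 37.9 throughout.

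Timp1, the inducible TIMP, showed the largest fold change of the 8 genes tested. It lies on chromosome X from 20870166 to 20874735 (GRCm38, GENCODE M21), within Syn1 on the other strand, with no shared exonic base. Its levels were 0.0897, 0.582 and 0.15 CPM in the WT libraries, from 2, 13 and 3 counts. They were 13.9, 20.6 and 9.24 CPM in the NS-treated libraries, from 410, 420 and 202 counts. Timp1 was thus close to the floor in WT and clearly read in every rd10 library. The log2 fold change was 5.68 ± 0.55 (SE; 95% CI 4.36 to 6.99; adjusted p = 0.000121). The log2 fold change was 6.88 without WT replicate 2 and between 5.25 and 5.92 without any other library.

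Timp2, the TIMP with the highest level per transcript length in WT and NS-treated retina, lies on chromosome 11 from 118301069 to 118355740. It was at 126, 127 and 119 CPM in WT and at 330, 333 and 313 CPM in NS-treated retinas. The libraries of each group lay close together and far from the other group. Timp2 rose by a log2 fold change of 1.39 ± 0.06 (95% CI 1.26 to 1.51; adjusted p = 2.76e-09).

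Timp3 lies on chromosome 10 from 86300372 to 86349506, within Syn3 on the other strand. It was at 112, 118 and 111 CPM in WT and at 352, 224 and 317 CPM in NS-treated retinas. All NS-treated libraries were above WT, but they spread over a wide range. The log2 fold change was 1.39 ± 0.17 (95% CI 0.99 to 1.79; adjusted p = 0.000468), the same size as for Timp2 with a larger error. Of the exonic bases of Timp3, 21.3% are also exonic in Syn3, and the strand setting of the counting is not given in the sources used here. Syn3 was at 3.72 to 11.5 CPM in all libraries, so Timp3 held 94.4% to 98.4% of the counts of the pair. The summed level of 7 retinal pigment epithelium genes was 234, 55.2 and 161 CPM in NS-treated replicates 1, 2 and 3, in the same order as Timp3 in these libraries. The order was not shared with MSC-EVs, where these genes summed to 90.7, 72.1 and 217 CPM and Timp3 was highest in replicate 2. In WT the same 7 genes summed to 58.9 to 105 CPM. Their part in the levels of Timp3 was not tested.

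Timp4, the TIMP most restricted in tissue, lies on chromosome 6 from 115241892 to 115252205, within Syn2 on the other strand. It was low, at 0.583, 0.358 and 0.2 CPM in WT and 1.79, 1.57 and 1.6 CPM in NS-treated retinas, from 4 to 13 and 32 to 53.04 counts. The groups did not overlap. Timp4 rose by a log2 fold change of 2.09 ± 0.36 (95% CI 1.3 to 2.88; adjusted p = 0.000325). The transcript length implied by the deposited counts and FPKM was 5.38 to 6.14 kb in WT and 2.29 to 3.66 kb in NS-treated retinas, so counts and FPKM give different folds for this gene. Its mean FPKM was 0.0633 in WT and 0.587 with NS. The limma difference was 2.06 on the log2(FPKM + 0.1) scale (adjusted p = 0.000392) and 0.57, under the limit, on the log2(FPKM + 1) scale. Timp4 shares 1.53% of its exonic bases with Syn2, and it held 0.338% to 0.912% of the counts of the pair in WT and 2.1% to 2.41% with NS.

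Mmp14, the membrane-bound metalloproteinase that activates pro-Mmp2, lies on chromosome 14 from 54431612 to 54445364. Its levels were 11.3, 12.2 and 11.1 CPM in WT and 41.3, 36.4 and 35.4 CPM in NS-treated retinas. Every NS-treated library was far above the WT libraries, and neither group spread widely. The log2 fold change was 1.71 ± 0.09 (95% CI 1.51 to 1.91; adjusted p = 2.35e-08).

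The gelatinases Mmp2 and Mmp9, which cut denatured collagen and collagen IV, differed little. Mmp2 (chromosome 8, 92827291 to 92853420) was at 9.55, 7.83 and 9.01 CPM in WT and at 10.7, 12.3 and 12.6 CPM in NS-treated retinas. The groups did not overlap, but the log2 fold change of 0.43 ± 0.12 (adjusted p = 0.00745) was under the limit. Mmp9 (chromosome 2, 164940780 to 164955850) was at 31.2, 29.4 and 32.6 CPM in WT and at 37.9, 33.9 and 36.6 CPM in NS-treated retinas. Its log2 fold change was 0.22 ± 0.08 (adjusted p = 0.0258), with a 95% CI of 0.05 to 0.38. The whole interval of Mmp9 lay under the fold limit, although its libraries did not overlap either. Its adjusted p was above 0.05 in 4 of the 6 fits that left out 1 library, without WT replicate 1 (0.0583) or 2 (0.108) or NS replicate 1 (0.0913) or 3 (0.0608).

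Mmp19, a widely expressed metalloproteinase that cuts basement membrane proteins, lies on chromosome 10 from 128790910 to 128800824. It was assigned 12, 25.75 and 4 counts in WT and 73.12, 55.2 and 60.84 counts in NS-treated retinas. These are 0.538, 1.16 and 0.2 CPM against 2.47, 2.7 and 2.79 CPM, and the groups did not overlap. The log2 fold change was 2.02 ± 0.4 (95% CI 1.14 to 2.91; adjusted p = 0.00104), and limma gave 1.86 on the log2(FPKM + 0.1) scale (adjusted p = 0.000778) and 0.70, under the limit, on the log2(FPKM + 1) scale. It was 2.8 without WT replicate 2 and 1.63 to 2.07 without any other library. Of its exonic bases, 22.3% are shared with Tmem198b on the other strand. Wherever the counts had decimals, those of both genes added up to a whole count (for example 25.75 and 233.25 in WT replicate 2), while WT replicates 1 and 3 had whole counts for both. The pair together was at 10.9, 11.6 and 11.1 CPM in WT and 15.5, 17.5 and 16.5 CPM in NS-treated retinas. Mmp19 took 1.81% to 9.94% of the pair's counts in WT and 15.5% to 16.9% in NS-treated retinas. This pair was looked at after the values of Mmp19 were seen.

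The stromelysin Mmp3 and the macrophage elastase Mmp12 were low, at no more than 0.962 and 2.21 CPM in any library. Mmp3 (chromosome 9, 7445822 to 7455975) had 0 counts in the 3 WT libraries, which allows up to 0.15 CPM in the shallowest of them. It had 18, 0 and 8 counts in NS-treated replicates 1, 2 and 3. Pooled over libraries, its NS level was at least 7.79-fold higher than a WT floor of 3 counts over the group, although replicate 2 had none. Mmp3 shares 8.39% of its 50-base stretches with other genes, most with Mmp10, which had 4 counts in NS-treated replicate 2 and 0 in all other libraries. Mmp12 (chromosome 9, 7344381 to 7369499) was assigned 8, 1 and 7 WT counts, and 21, 45 and 9 with NS. At 0.359, 0.0448 and 0.35 against 0.71, 2.21 and 0.412 CPM, its groups were next to each other but did not overlap. With no filter on low counts both genes passed as higher in NS-treated retina (adjusted p = 0.019 for Mmp3 and 0.0345 for Mmp12), but Mmp3 did not pass with all 9 libraries in one fit (adjusted p = 0.0981), nor Mmp12 without NS replicate 2 (adjusted p = 0.118), without WT replicate 1 (0.0536), 2 (0.0958) or 3 (0.0599). These floors cover counting error only.

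**Figure D2:**
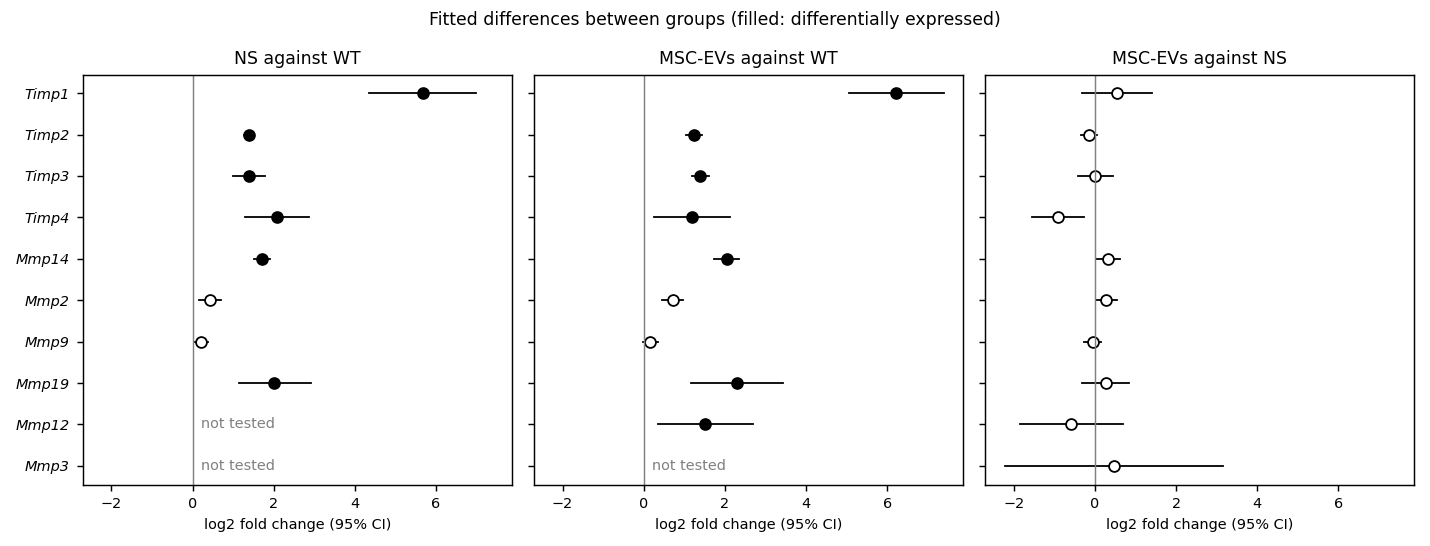
Log2 fold change of each gene (horizontal axes) with its 95% confidence interval, in 3 panels: NS with WT as the reference, MSC-EVs with WT as the reference, and MSC-EVs with NS as the reference. Filled points are differentially expressed genes; 6 and 7 points are filled in the first and second panels, and none in the third, where Timp4 lies lowest at -0.91.

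The next question was whether these genes differed between the rd10 groups. None of the 10 genes was differentially expressed between MSC-EVs-treated and NS-treated retinas. Over all 14765 genes tested, 0.0542% were called higher and 0.00677% lower. At an unadjusted p under 0.05 there were 3 such genes (Timp4, Mmp2 and Mmp14), and limma also called 0 of the 10. The share of all genes at that unadjusted p is not given, here or for the lists below. Such counts are therefore not read as a result. DESeq2 called 0 of 6 and gave no adjusted p for Timp4, Mmp19, Mmp3 and Mmp12. Their median log2 fold change was 0.13, against -0.00 over all genes. In Mmp2 every MSC-EVs-treated library lay above, and in Timp4 below, every NS-treated library, as did 12.8% and 13.5% of all genes. The intervals differed greatly in width, so that the data bound the difference well for some genes and hardly for others.

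Timp4 was at 0.627, 1.07 and 0.917 CPM in MSC-EVs-treated retinas, between WT and NS-treated levels. The log2 fold change against NS was -0.91 ± 0.29 (95% CI -1.56 to -0.27), but it missed the threshold (adjusted p = 0.129). It rested on 15, 25 and 59 counts, and the value ranged from -1.05 to -0.74 when each library was left out. The comparisons of NS with WT and of MSC-EVs with NS share the NS libraries, so these values enter both with opposite sign.

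With MSC-EVs, Mmp2 was at 13.5, 15.6 and 13.9 CPM, and it had a log2 fold change of 0.28 ± 0.11 against NS (95% CI 0.02 to 0.53; adjusted p = 0.215). Mmp14 was at 52.7, 51.6 and 37.6 CPM, a log2 fold change of 0.33 ± 0.13 (95% CI 0.03 to 0.62; adjusted p = 0.206). MSC-EVs replicate 3 lay within the NS-treated range and the other two above it. Timp1 was at 27, 21.9 and 14.6 CPM, and its log2 fold change of 0.54 ± 0.35 had a 95% CI of -0.33 to 1.4. It ranged from 0.30 (without NS replicate 3) to 0.86 (without NS replicate 2) when each library was left out. Its rd10 groups overlapped. Timp1 is X-linked, and the sexes of the mice are not given in the labels. A set of 4 Y-linked genes summed to 183 and 189 CPM in MSC-EVs replicates 1 and 2 and to at most 0.5 CPM in every other library. With that level as a covariate, the log2 fold change was 0.02 for Timp1 and 0.01 for Mmp14. As the level was high only in replicates 1 and 2, such a fit in effect sets MSC-EVs replicate 3 alone against the other group. This holds against NS and against WT, so the fit cannot separate sex from other differences between these libraries. Replicates 1 and 2 were also the MSC-EVs libraries with the higher levels of 7 reactive gliosis genes, at 2490 and 2320 CPM against 1740 CPM in replicate 3. The part of sex or of gliosis in these differences was not tested.

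Timp2, Timp3 and Mmp9 had intervals that held 0. In the MSC-EVs libraries Timp2 was at 313, 315 and 251 CPM, and its log2 fold change was -0.15 (95% CI -0.34 to 0.05). It was -0.36 with the Y-linked covariate, which in effect leaves MSC-EVs replicate 3 alone, and -0.05 without that library. Timp3 was at 274, 342 and 275 CPM, a log2 fold change of 0.00 (95% CI -0.43 to 0.44). Mmp9 was at 32.8, 32.6 and 37.8 CPM, a log2 fold change of -0.06 (95% CI -0.27 to 0.14). These 3 intervals from edgeR lay within the fold limit in both directions. Mmp12 (21, 15 and 42 counts) had a 95% CI of -1.86 to 0.68 and Mmp3 (23, 0 and 30 counts) one of -2.23 to 3.16, which reached beyond that limit. So did the intervals of Timp1 and Timp4 given above. Mmp19 was at 2.97, 4.35 and 2.3 CPM, with a 95% CI of -0.32 to 0.84 that lay within the limit. The interval of Mmp3 thus bounded a difference between the rd10 groups within the fold limit in neither direction. That of Mmp12 did not so bound a lower level with MSC-EVs. The counts of both genes varied between libraries of a group, and the part of depth was not tested.

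Against WT, 7 of 9 tested genes were called higher with MSC-EVs, compared with 9.0% of all 14623 genes. Timp1, Timp4, Mmp19 and Mmp12 were low in WT and passed the filter through the MSC-EVs-treated libraries, so they could hardly be called lower. With at least 10 counts in every library, 3 of 5 genes were called higher, against 960 of 13753 genes. In 8 of the 9 every MSC-EVs-treated library lay above every WT library, as in 31.9% of all genes. This comparison uses the same WT libraries as that of NS with WT. The log2 fold changes were 6.22 ± 0.49 for Timp1, 2.3 ± 0.49 for Mmp19, 2.04 ± 0.14 for Mmp14, 1.39 ± 0.09 for Timp3 and 1.24 ± 0.09 for Timp2. Mmp12 (1.52 ± 0.53; adjusted p = 0.0331) and Timp4 (1.18 ± 0.42; adjusted p = 0.0366) passed narrowly. With DESeq2 both lost the call (adjusted p = 0.0758 for Mmp12 and 0.101 for Timp4), as they did with the Y-linked covariate (0.1 and 0.0754), so that 5 of 9 genes were called in each of these settings. Mmp12 also lost it with all 9 libraries in one fit (adjusted p = 0.0901). Mmp12 lost its call without WT replicate 2 (adjusted p = 0.104), WT replicate 3 (0.0593) or MSC-EVs replicate 1 (0.0939). As with NS, Timp1 (7.43) and Mmp19 (3.07) had larger log2 fold changes without WT replicate 2. Timp4 lost its call without WT replicate 2 (0.117), WT replicate 3 (0.14), MSC-EVs replicate 2 (0.0741) or MSC-EVs replicate 3 (0.078). Mmp2 (0.71 ± 0.12; adjusted p = 0.000666) passed the adjusted p but not the fold limit, and Mmp9 (0.16 ± 0.08; adjusted p = 0.142) passed neither. Mmp3 was at least 10.2-fold above the pooled WT floor, again with 0 counts in replicate 2, and of the settings in which it was tested it was called only when that library was left out (adjusted p = 0.000703).

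Levels per transcript length gave the relative amounts of the genes. In WT the order of mean FPKM was Timp2 (31), Timp3 (22.2), Mmp9 (9.06), Mmp14 (4.1) and Mmp2 (2.67), each separated from the next by libraries that did not overlap. Timp1 (0.3), Mmp19, Mmp12 and Timp4 followed at under 1 FPKM with overlapping ranges, and Mmp3 was listed at 0. In NS-treated retina Timp2 (91.8) and Timp3 (65.9) still led, and Timp1 (17.6) and Mmp14 (15.2), which overlapped, came before Mmp9 (11.9), which the lowest Timp1 library (11.27) also reached, and Mmp2 (4.15). With MSC-EVs, Timp2 (81.8) and Timp3 (65.1) overlapped, as did Timp1 (25.5) and Mmp14 (19). Timp1 was thus a trace component of the TIMP transcripts in WT and came next after Timp2 and Timp3 by mean FPKM in rd10, with libraries that overlapped those of Mmp14.

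**Figure D3:**
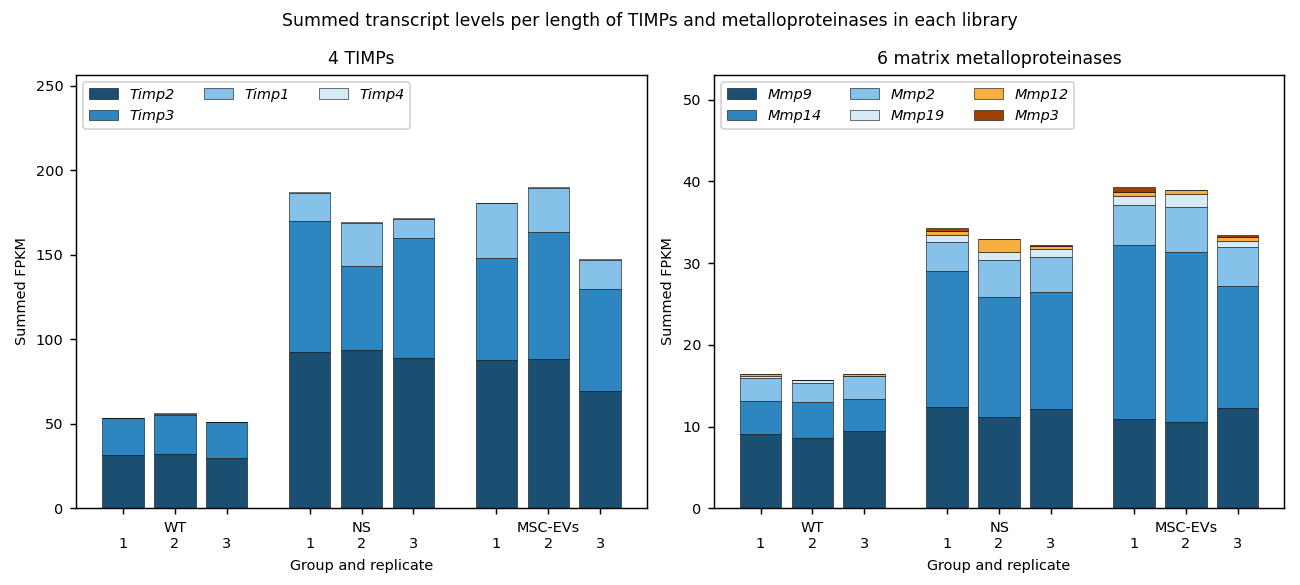
FPKM of the 4 TIMPs (left) and 6 metalloproteinases (right), stacked by gene, in each library (horizontal axis: group and replicate). TIMPs sum to 51.4 to 56.2 in WT and 147.3 to 190.0 in rd10, with Timp1 visible only in rd10; Mmp9 is the largest metalloproteinase block in WT and Mmp14 the largest in rd10.

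The FPKM of the 4 TIMPs summed to 51.4 to 56.2 in WT, 169.0 to 187.2 in NS-treated and 147.3 to 190.0 in MSC-EVs-treated retinas. The 6 metalloproteinases summed to 15.7 to 16.4, 32.3 to 34.3 and 33.4 to 39.3. Transcripts of the 4 TIMPs were 3.12 to 3.57 times those of these 6 metalloproteinases in WT, 5.13 to 5.46 times with NS and 4.40 to 4.88 times with MSC-EVs. The 17 other metalloproteinases are not in these sums. The 3 ranges of this ratio did not overlap. For single genes in CPM, 12.8% of all lay higher and 13.5% lower with MSC-EVs than with NS without overlap. With NS against WT, 33.7% lay higher without overlap. The sums and ratios describe RNA, not protein or enzyme activity, and no test was run on them. Since FPKM is not scaled to composition, folds between groups differ between FPKM and CPM. The mean of Timp2 went from 31.0 in WT to 91.8 with NS in FPKM, and from 124 to 325 in CPM. The ratios are taken within a library and are not affected. Timp1 made up 0.187% to 1.12% of the TIMP total in WT, 6.57% to 14.8% with NS and 11.8% to 18.1% with MSC-EVs. Among these 6 metalloproteinases, Mmp9 held 55.0% to 57.5% in WT and 27.3% to 37.5% in rd10. Mmp14 held 23.8% to 27.7% in WT and 44.3% to 54.1% in rd10, so it took the first place from Mmp9 in every rd10 library.

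Several cell types that can express these genes also differed between WT and rd10. Microglia and macrophage genes (10 genes) summed to 73 to 77.5 CPM in WT, 381 to 467 CPM with NS and 309 to 535 CPM with MSC-EVs, and all 10 were called higher in NS-treated retina. Reactive gliosis genes (7 of 7 called higher) summed to 228 to 243, 1440 to 1890 and 1740 to 2490 CPM. Müller glia genes (2 of 7 called higher) summed to 4730 to 5040, 6760 to 8180 and 6050 to 6270 CPM. Endothelial and pericyte genes (0 of 9 called, 8 with an adjusted p under 0.05) summed to 326 to 340, 554 to 560 and 481 to 589 CPM. Fibroblast genes (3 of 6 tested called higher) summed to 72 to 73.9, 113 to 135 and 110 to 119 CPM. Of 9 genes of infiltrating monocytes and neutrophils only Ccr2 and Ly6c2 were tested, and both were called higher. Of the others, S100a8 and S100a9 had 0 counts in WT and at most 7 and 9 in an NS library and 11 each in an MSC-EVs library. Ly6g, Mpo and Camp had at most 3 counts in any library, and Elane and Ms4a3 had 0 in all. Retinal pigment epithelium genes overlapped between WT and NS, and 1 of 7 (Best1, named after its value was seen) was called higher. Ciliary body and iris genes summed to 457 to 481, 956 to 1120 and 906 to 1290 CPM, and 1 of the 6 tested (Cp, likewise named afterwards) was called higher. The part of these cells in the higher levels of TIMPs and metalloproteinases was not tested.

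For each gene called in NS-treated retina, the genes most like it over the 9 libraries were those with the highest Pearson r of log2(CPM + 0.5) among 14908 genes. Mmp14 was most like Fcgr2b (0.999), Entpd1 (0.999) and Rassf2 (0.998). Timp1 was most like Casp1 (0.998), Apobec1 (0.995) and Vwa5a (0.995). Timp2 was most like Spon1 (0.998), Kctd12 (0.997) and Slco2b1 (0.997), and Timp3 like Pon3 (0.995), Snx9 (0.994) and Ehd2 (0.993). Mmp19 was most like S100a13 (0.986), Tbl1x (0.983) and Medag (0.979), and Timp4 like Ccdc3 (0.987), Susd2 (0.984) and Klhdc7a (0.983). Such values are common here, as the points share the difference between WT and rd10: from 323 genes for Timp4 to 1992 genes for Timp2 had an r above 0.9. Among the 10 genes themselves, Mmp14 and Timp1 were at 0.99, while Mmp3 and Mmp12 were at 0.18.

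Genes that act with metalloproteinases were described by 5 lists. Of 17 other metalloproteinases only 6 passed the filter and 0 were called with NS against WT, although 3 passed the adjusted p, and the median log2 fold change was 0.25. Mmp16 (0.71 ± 0.15), Mmp28 (0.66 ± 0.2), Mmp24 (0.23 ± 0.08), Mmp15 (0.25 ± 0.11) and Mmp11 (0.25 ± 0.31) were all under the fold limit. At an unadjusted p under 0.05 there were 4 with edgeR, and DESeq2 also called 0. With no filter, with all 9 libraries in one fit, without NS replicate 2 or without WT replicate 3, 1 gene of this list, Mmp25, was called higher, and it was named after its values were seen. Of 29 ADAM and ADAMTS genes, many but not all of which encode enzymes that cut cell surface proteins or proteoglycans, 27 were tested. Among these, 6 were called higher and 1 lower, and the median was 0.53. Adamts1 (2.1 ± 0.07) and Adamts4 (1.8 ± 0.17), which cut the proteoglycans aggrecan and versican, rose. Adam23 (0.75 ± 0.06), Adam22 (0.61 ± 0.06) and Adam15 (0.66 ± 0.07) were under the limit. The gene called lower was Adamts16 (-1.29 ± 0.35), named after its value was seen.

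**Figure D4:**
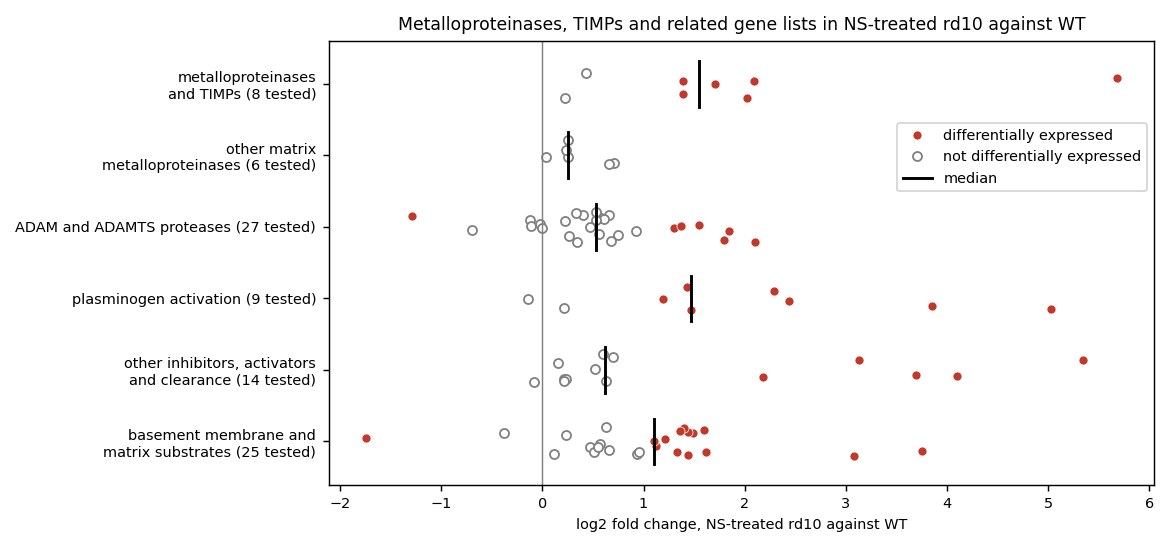
Log2 fold change in NS-treated rd10 against WT (horizontal axis) of each tested gene of 6 lists (rows), with red points for differentially expressed genes, open points for the rest and a black bar at each median. The medians lie at 1.55 for the metalloproteinases and TIMPs, 1.47 for plasminogen activation and 1.1 for matrix substrates, and at 0.25 for the other metalloproteinases.

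The plasminogen system makes plasmin, which activates several pro-metalloproteinases. Of 12 genes 9 were tested, 7 were called higher and 0 lower, and the median log2 fold change was 1.47. Plat, the tissue plasminogen activator, rose by 2.44 ± 0.09 and Plaur, the urokinase receptor, by 5.03 ± 0.41. Anxa2 (1.47 ± 0.1) and S100a10 (1.19 ± 0.08), which together bind plasminogen at the cell surface, and Serpine2 (1.43 ± 0.11), an inhibitor of plasminogen activators and thrombin, rose too.

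Of 15 other inhibitors, activators and clearance genes 14 were tested, 5 were called higher and 0 lower, with a median of 0.62. Cd44, a surface receptor for hyaluronan that can dock metalloproteinases, rose by 3.13 ± 0.11, and A2m, the protease trap alpha-2-macroglobulin, by 4.1 ± 0.14. The other called genes, named after their values were seen, were Lcn2 (5.35 ± 0.61), which binds Mmp9, and the thrombospondins Thbs1 (3.69 ± 0.66) and Thbs2 (2.18 ± 0.31). Spock3 (0.6 ± 0.06), Spock1 (0.52 ± 0.06) and Lrp1 (0.7 ± 0.09), the endocytic receptor that clears metalloproteinases and TIMPs, were under the limit. Reck, a membrane-anchored inhibitor, was at -0.08 ± 0.08.

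Of 26 genes of basement membrane and matrix proteins 25 were tested, 13 were called higher and 1 lower, with a median of 1.1. Sparc (1.4 ± 0.06), a collagen-binding matricellular protein, Efemp1 (1.49 ± 0.07), a fibulin that binds Timp3, Lama5 (1.44 ± 0.08), a laminin chain, and Fn1 (1.1 ± 0.08), fibronectin, rose. Vtn, vitronectin, a cell-adhesion protein that photoreceptors express strongly, fell by 1.74 on the log2 scale (± 0.09). Between the rd10 groups 0 of 81 tested genes of the 5 lists were called by edgeR. At an unadjusted p under 0.05 there were 18, again without the share of all genes to set beside them. DESeq2 called 0 and gave an adjusted p for 67 of the 81. Without MSC-EVs replicate 2 there were 2 calls, Fbln1 and Plaur, both lower with MSC-EVs and named after their values were seen. Cd44 alone among them passed the adjusted p with no fold limit, at 0.62 ± 0.11 (adjusted p = 0.046), and was named after its value was seen. The medians of the 5 lists in that comparison lay between -0.13 and 0.04.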

How the data were processed

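The authors sequenced poly(A)-enriched RNA and deposited one table with an estimated count and an FPKM value for each of 22337 genes in 9 libraries. The submitters' processing notes name fastp, Bowtie2, HISAT2, StringTie 1.3.1 and RSEM, without their roles. The genome build, annotation and strand setting are not given in the sources used here. The deposited estimated counts are not scaled, whereas the authors divided the FPKM values by transcript length and depth.

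Decimals were found in 9.2% to 11.7% of a library's genes, so counts were rounded to whole numbers for edgeR 4.0.16 (R 4.3.3). For each pair of groups, 6 libraries entered filterByExpr, TMM and the robust quasi-likelihood test, with Benjamini-Hochberg adjustment over all genes tested. A standard error is the absolute log2 fold change divided by the square root of F. CPM values were scaled by TMM over all 9 libraries. Alternatives were DESeq2 1.42.0, limma 3.58.1 on log2(FPKM + 1) or log2(FPKM + 0.1), other scalings and filters, a replicate block, a Y-linked covariate and leaving out each library. The tests were tried on simulated counts.

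The 10 genes and all lists were chosen with earlier results of these data known. Every one of the 10 is described, and of each list up to 5 genes with the smallest adjusted p in NS against WT. Positions came from GENCODE M21, which held 22232 of the identifiers. Libraries of a group differed by more than sampling noise. Figures were drawn with matplotlib.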

Additional observations from a re-analysis of the deposited data

How the results depend on the processing

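Over all genes, 1863 were called in NS against WT, 9 in MSC-EVs against NS and 1784 in MSC-EVs against WT. With no limit on the fold change these were 8972, 172 and 8117. With limma on log2(FPKM + 1) they were 989, 2 and 1021, and with no filter as well 987, 0 and 1008. Between the rd10 groups, log2(FPKM + 0.1) gave 2, the Wald test of DESeq2 25, all 9 libraries in one fit 38 and the Y-linked covariate 28. Leaving out 1 library gave 0 (without NS replicate 3 or MSC-EVs replicate 1) to 82 (without MSC-EVs replicate 2).

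Of the 10 genes, 3 were called against WT in each rd10 group at 10 counts or more in every library, because Timp1, Timp4, Mmp19, Mmp3 and Mmp12 were then not tested. With limma on log2(FPKM + 1), 4 were called with MSC-EVs against WT, filter or none. With DESeq2 or the Y-linked covariate, 5 were called in that comparison. In MSC-EVs against NS 0 were called in any alternative, but DESeq2 gave an adjusted p for 6 of the 10 and the 10-count filter left 8. There, with the Y-linked covariate, Mmp9 was at 0.08, Mmp19 at -0.19, Timp3 at -0.10 and Timp2 at -0.36. Timp3 was at -0.03 with upper-quartile factors, and at -0.00 with no filter, all 9 libraries in one fit and each limma setting. Leaving out 1 library gave -0.17 to 0.14 for Timp3, -0.25 to 1.33 for Mmp3, -0.98 to 0.33 for Mmp12 and -0.01 to 0.47 for Mmp19. In NS against WT, Mmp11 ranged from -0.08 to 0.52. Of 29 ADAM and ADAMTS genes 1 was called higher with log2(FPKM + 1). The causes were not tested.

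Same-numbered libraries had deviations from their group means that correlated at 0.089, 0.197 and 0.284 between the rd10 groups. Each was highest with its own number, and different numbers were at -0.222 to -0.002. With WT, same-numbered libraries were at -0.074 to 0.073, which does not bear on pairs between the rd10 groups. The labels name no pairs, and the main fits used none. With a replicate block, 1861, 21 and 1790 genes were called. Of the 10 genes 6, 0 and 6 were called, and Timp4 with MSC-EVs against WT was the one lost (adjusted p = 0.0565). In MSC-EVs against NS the smallest adjusted p of the 10 from edgeR was 0.0956 with the block, for Mmp14, and 0.129 without it, for Timp4. Between the rd10 groups 1 gene of the 5 lists (Fbln2) was then called lower.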
